A study of Mus musculus with 4 samples.

Results

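The genes described here are 10 members of the Notch signalling pathway, taken by symbol from the 25413 genes of a deposited raw count table. They are the receptors Notch1, Notch2, Notch3 and Notch4, the ligands Jag1, Jag2 and Dll1, and the target genes Hes1, Hey1 and Hey2. All 10 were found in the table. The cells were EpH4, a mouse line derived from mammary epithelium. There are 2 libraries of RNA from cells exposed to PM2.5 (fine airborne particles) and 2 Control libraries of RNA from untreated cells. All 4 libraries came from wildtype cells of this single line grown in 2D culture, share a single batch value in the labels and were made from polyA RNA with a stranded kit. The labels give no dose, exposure time or source of the particles. Whether replicate libraries came from separate cultures is not stated, so the p-values reflect only how far these samples spread, which may be technical.

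Notch receptors are transmembrane proteins that are activated by ligands on a neighbouring cell. Binding of a Jagged or Delta-like ligand exposes the receptor to ADAM proteases and then to the gamma-secretase complex, which releases the intracellular domain. In the nucleus this domain joins the DNA-binding protein RBPJ and a Mastermind co-activator and switches on genes of the Hes and Hey families, which encode transcriptional repressors. In the mammary gland the pathway is known for its part in luminal cell fate.

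Total counts were 20232277 and 18548478 in the PM2.5 libraries and 19562930 and 26206329 in the Control libraries. A count of 3, taken as the limit for a gene at 0, corresponds to 0.145 and 0.158 CPM in the PM2.5 libraries and 0.158 and 0.116 CPM in the Control libraries. CPM is counts per 1000000 after scaling of the library sizes (TMM), and such limits cover counting error only. Markers of the labelled cell type were mostly missing: of 10 luminal mammary markers, Krt18, Krt19, Epcam, Kit and Csn2 had 0 counts in every library, and Cdh1 had 6 counts in PM2.5 and 5 in Control in total. Krt8 had 9 and 20 counts in PM2.5 and 1 and 3 in Control, and was not tested. The luminal sum of 18.6 to 20.7 CPM in PM2.5 and 14.1 to 15.3 CPM in Control was nearly all Esr1. Of 7 basal markers, which summed to 67.1 to 67.2 CPM in PM2.5 and 81.7 to 81.9 CPM in Control, Krt5 was at 0. Of the 4 basal markers tested, 1 was higher, Mylk at 44.1 CPM in PM2.5 and 26.9 CPM in Control, and 1 was lower, Krt14 at 19.7 ± 1.52 CPM in PM2.5 and 52.0 ± 1.43 CPM in Control (SD, n = 2 each). The 10 mesenchymal markers summed to 3931 to 4095 CPM in PM2.5 and 4813 to 5022 CPM in Control, and 3 were higher and 4 lower in PM2.5 of 8 tested. Over all tested genes 19.2% were higher and 20.4% lower. The 5 immune markers summed to 9.16 to 10.9 CPM in PM2.5 and 3.79 to 4.46 CPM in Control, nearly all from Cd68, with Cd3e at 0 and Ptprc at 4 counts in PM2.5 and 3 in Control. Of 3 adipocyte markers, summing to 4.22 to 5.72 CPM in PM2.5 and 0.421 to 0.504 CPM in Control, nearly all came from Fabp4 and Adipoq was at 0. The 5 endothelial markers summed to 0.436 to 0.843 CPM in PM2.5 and 0.504 to 1.05 CPM in Control, with Emcn at 0. The part of these differences in the results below was not tested, and in bulk RNA fewer cells of a type and less RNA per cell cannot be told apart.

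Promoter sequences are shown for the receptors Notch1 and Notch2, which were both higher in PM2.5, and for the target gene Hey2, which was at 0 in every library. They are the 250 bases before the gene start in RefSeq on GRCm38.p6, a different build from the GRCm39 of the counts. In the Notch2 sequence capitals mark a match to GCGTG, the core letters of the site bound by the aryl hydrocarbon receptor. In the Hey2 sequence they mark a match to GTGGGAA, the letters of a consensus RBPJ site. Both motifs were searched on both strands. The Notch1 sequence holds neither.
Notch1 (chr2:26503823-26504072, minus strand): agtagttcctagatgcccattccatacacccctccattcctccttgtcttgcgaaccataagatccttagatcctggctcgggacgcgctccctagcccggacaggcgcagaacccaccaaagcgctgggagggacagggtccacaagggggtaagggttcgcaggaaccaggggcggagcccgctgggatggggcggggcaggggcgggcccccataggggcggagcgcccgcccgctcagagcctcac
Notch2 (chr3:98013288-98013537, plus strand): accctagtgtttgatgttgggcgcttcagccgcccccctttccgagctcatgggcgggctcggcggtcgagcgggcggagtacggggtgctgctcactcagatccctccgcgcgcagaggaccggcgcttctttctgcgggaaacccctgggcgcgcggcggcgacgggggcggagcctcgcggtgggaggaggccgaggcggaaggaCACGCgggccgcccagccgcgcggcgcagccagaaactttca
Hey2 (chr10:30842784-30843033, minus strand): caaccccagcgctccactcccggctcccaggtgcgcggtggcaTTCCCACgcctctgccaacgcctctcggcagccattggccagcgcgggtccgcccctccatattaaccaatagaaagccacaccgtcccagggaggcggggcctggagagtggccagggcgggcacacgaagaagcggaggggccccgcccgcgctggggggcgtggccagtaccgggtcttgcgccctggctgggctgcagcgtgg

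The table held windows for 8 of the 10 members, all but Hes1 and Hey1, and 9 windows in all because Dll1 has a pair of starts. GTGGGAA was found in Hey2 alone, with its first base 207 bases before the start, while 5.42% of 32851 mouse promoter windows held it. It shares 3 bases with a GCGTG match in the same window. GCGTG was found in 7 of the 8 members, all but Notch1, and in 28.2% of all windows. In Notch2 it begins 42 bases before the start. The members' windows were 56.0% to 87.2% G and C, with a median of 66.0%, against a median of 52.4% for all windows and 60.8% for all windows with GCGTG. These matches describe letters only and show no binding.

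Set against one another by RPKM, the authors' deposited count scaled by gene length and library size, the members were led by Notch2 in both groups. Notch2 averaged 19.2 ± 0.389 RPKM in PM2.5 and 15.6 ± 0.0119 RPKM in Control (SD, n = 2 each). It made up 86.3% and 87.2% of the summed RPKM of the 4 receptors in the PM2.5 libraries and 87.0% and 87.3% in the Control libraries. In PM2.5 the order after Notch2 was Notch1 at 1.82 ± 0.0233, Jag1 at 1.35 ± 0.0236, Hes1 at 1.30 ± 0.207, Notch4 at 0.908 ± 0.123, Jag2 at 0.343 ± 0.0213, Notch3 at 0.188 ± 0.00708 and Hey1 at 0.107 ± 0.0315 RPKM. In Control it was Notch1 at 1.27 ± 0.123, Jag1 at 1.21 ± 0.130, Notch4 at 0.795 ± 0.122, Hes1 at 0.597 ± 0.213, Notch3 at 0.243 ± 0.0482, Jag2 at 0.193 ± 0.0671 and Hey1 at 0.0850 ± 0.00721 RPKM. Neighbours in this order overlapped between libraries for Jag1 and Hes1 in PM2.5, and for Notch1 and Jag1, Notch4 and Hes1, and Notch3 and Jag2 in Control. Dll1 and Hey2 were at 0 in both groups. Among genes with any count, the mean RPKM of Notch2 exceeded that of 81.1% and that of Notch1 43.7%.

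**Figure D1:**
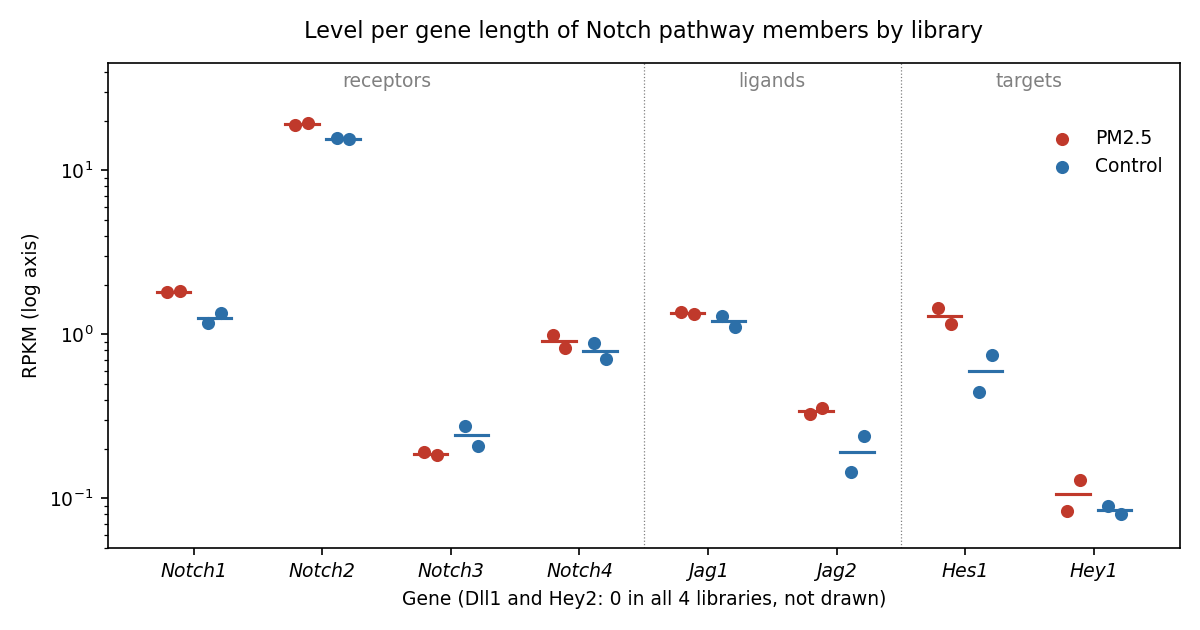
RPKM on a log axis for the 8 members with counts, with each point 1 library and each line the mean of 2 libraries. Notch2 lies above all other members at 18.9 and 19.4 RPKM in PM2.5 and 15.7 and 15.6 RPKM in Control, and for Hes1 the PM2.5 libraries, at 1.45 and 1.15 RPKM, lie above the Control libraries, at 0.446 and 0.748 RPKM.

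The comparison of PM2.5 with Control asks which of these transcripts differ after exposure to fine particles. The receptors Notch1 and Notch2 and the target Hes1 were higher in PM2.5, and 0 members were lower, by edgeR's quasi-likelihood test over all genes at an adjusted p below 0.05. Of 10 members 7 were tested. Dll1 and Hey2 had 0 counts, Hey1 had too few, and the 7 tested had at least 15 counts in every library. The 3 of 7 called higher stand beside 19.2% of the 12478 genes tested, and the 0 lower beside 20.4%, or 39.6% in either direction. Against a minimum change of 1.5-fold, 0 members were called. Over all genes 2399 were higher and 2540 lower with TMM, against 3090 and 1889 where library sizes alone set the scale. At an unadjusted p below 0.05, 4 members were higher and 0 lower with edgeR and with limma-voom, and 3 and 0 with DESeq2. The share of all genes at that unadjusted threshold was not determined, so these counts have nothing to stand beside. DESeq2 called 2 higher at its adjusted threshold, Notch1 and Notch2, and limma-voom the same 3 as edgeR. Of all 12478 genes, DESeq2 called 1581 higher and 1928 lower, and limma-voom 2387 and 2532. The libraries of the groups did not overlap in CPM for 5 members that were above in PM2.5 and 1 that was below. Such separation was found in 35.9% and 35.1% of all tested genes, 71% in all. The median log2 fold change of the 7 was 0.27, against 0.0063 over all tested genes.

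Notch2 (ENSMUSG00000027878, chromosome 3, 97920843 to 98057677, plus strand, GRCm39) had 235 and 241 CPM in the PM2.5 libraries, against 198 and 197 CPM in the Control libraries. Both PM2.5 libraries were above both Control libraries, and the gap was larger than the spread within either group. Its log2 fold change was 0.27 (SE 0.05, 95% interval 0.15 to 0.39, edgeR adjusted p = 0.00268), a 1.20-fold difference. Its counts were 4850 and 4572 in PM2.5 and 3763 and 5086 in Control, so it was measured far more deeply than any other member. A pair of predicted genes on the same strand lie within its span, with 31 and 50 counts over all 4 libraries. The 40 tested genes nearest to Notch2 on its chromosome had a median log2 fold change of 0.03, and 0.24 was left for Notch2 when that was taken out (adjusted p = 0.00648).

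Notch1 (ENSMUSG00000026923, chromosome 2, 26347915 to 26406675, minus strand) had 20.9 and 21.2 CPM in PM2.5, against 13.9 and 15.9 CPM in Control. The PM2.5 libraries were close to each other, while the Control libraries differed by more, and the groups did not overlap. The log2 fold change was 0.49 (SE 0.10, 95% interval 0.26 to 0.72, edgeR adjusted p = 0.00393), a 1.40-fold difference. Its neighbours had a median of -0.12, and with that taken out the log2 fold change was 0.61. As a share of the receptors' summed RPKM, Notch1 held 8.25% in each PM2.5 library and 6.56% and 7.57% in the Control libraries. Whether its change differed from that of Notch2 was not tested.

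Notch4 (ENSMUSG00000015468, chromosome 17, 34783242 to 34807477, plus strand), a receptor known mainly from blood vessels, had 7.95 and 6.53 CPM in PM2.5 and 7.15 and 5.74 CPM in Control. The groups overlapped. Its log2 fold change of 0.19 had a 95% interval of -0.18 to 0.56 (edgeR adjusted p = 0.401). Notch3 (ENSMUSG00000038146, chromosome 17, 32339794 to 32385826, minus strand), known from smooth muscle and pericytes, was the member with lower values in PM2.5, at 1.84 and 1.74 CPM, against 2.68 and 2.02 CPM in Control. Those 4 values came from 38 and 33 counts in PM2.5 and 51 and 52 in Control. The log2 fold change of -0.36 had a 95% interval of -0.94 to 0.22 (edgeR adjusted p = 0.303) and did not pass the test.

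Of the ligands, Jag1 (ENSMUSG00000027276, chromosome 2, 136923376 to 136958564, minus strand) had 9.11 and 8.85 CPM in PM2.5 and 8.78 and 7.52 CPM in Control. The higher Control library lay just under the lower PM2.5 library. Its log2 fold change was 0.15 (95% interval -0.15 to 0.46, edgeR adjusted p = 0.411). Jag2 (ENSMUSG00000002799, chromosome 12, 112871439 to 112893396, minus strand), a second ligand of the Jagged type, had 1.99 and 2.16 CPM in PM2.5 and 0.894 and 1.47 CPM in Control, from 41 and 41 counts in PM2.5 and 17 and 38 in Control. Both PM2.5 libraries were above both Control libraries, but the Control libraries lay further from each other than the PM2.5 libraries did. The log2 fold change was 0.75 (SE 0.30, 95% interval 0.08 to 1.43), and it missed the threshold (edgeR adjusted p = 0.0717). Without Control replicate 2 it was 1.20, with an adjusted p of 0.0372 in edgeR, the smallest of 18 other settings, of which 2 called Jag2 and the largest p was 1. Jag1 took 80.7% and 78.8% of the RPKM of both Jagged ligands in PM2.5 and 89.9% and 82.3% in Control. Dll1 (ENSMUSG00000014773, chromosome 17, 15587616 to 15597134, minus strand), a Delta-like ligand, had 0 counts in every library, below the limits given above.

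Hes1 (ENSMUSG00000022528, chromosome 16, 29883202 to 29886614, plus strand), the repressor that is the best known direct target of Notch, had 2.52 and 2.00 CPM in PM2.5, against 0.789 and 1.32 CPM in Control. These rest on 52 and 38 counts in PM2.5 and 15 and 34 in Control. All PM2.5 values were above all Control values, and within each group the libraries differed clearly. The log2 fold change was 1.05 (SE 0.31, 95% interval 0.36 to 1.75, edgeR adjusted p = 0.0216), a 2.08-fold difference. The call ended with DESeq2 (log2 fold change 1.08, adjusted p = 0.0943), without PM2.5 replicate 1 (0.87, adjusted p = 0.142), without Control replicate 1 (0.78, adjusted p = 0.0997), against a minimum change of 1.5-fold (adjusted p = 0.382) and with the deposited total gene reads (0.48, adjusted p = 0.118). Over the 18 other settings the adjusted p ran between 0.0113 and 0.382. Hes1 lies where neighbouring genes were lower in PM2.5, with a local median of -0.21, and with that taken out its log2 fold change was 1.26 (edgeR adjusted p = 0.0113).

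Hey1 (ENSMUSG00000040289, chromosome 3, 8728419 to 8732316, minus strand), a related repressor, had 5 and 7 counts in PM2.5 and 5 and 6 in Control. The scaled ratio of the summed counts, PM2.5 over Control, was 1.23, with an exact 95% interval of 0.498 to 3.09 that covers counting error only, so no difference was detectable at this depth. Hey2 (ENSMUSG00000019789, chromosome 10, 30708355 to 30718797, minus strand), the gene whose RBPJ match is shown above, had 0 counts in every library.

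**Figure D2:**
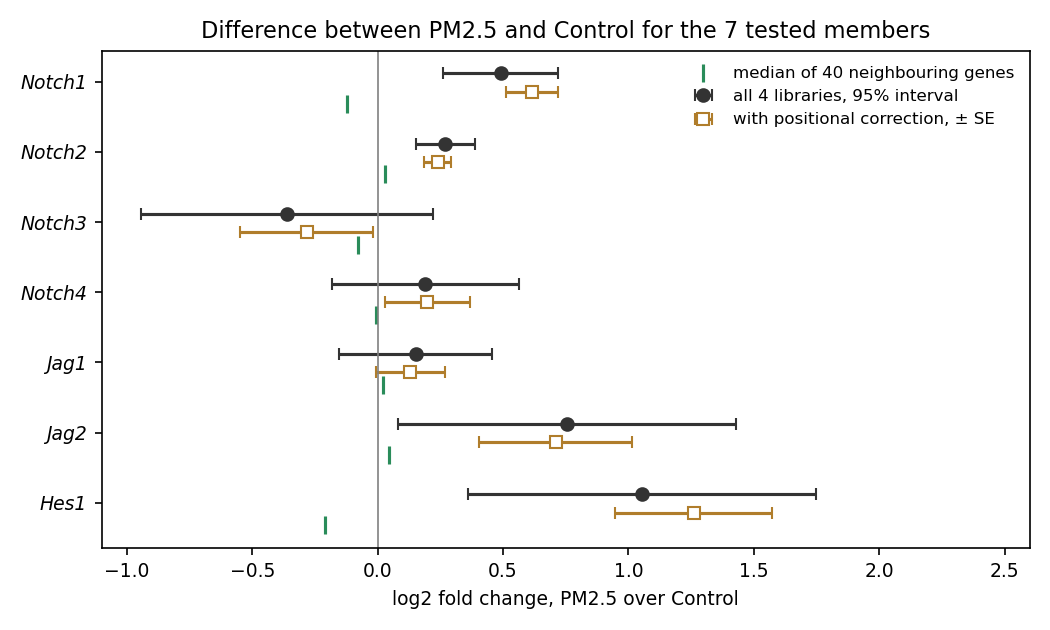
Log2 fold change of PM2.5 over Control for the 7 tested members, with 95% intervals from edgeR (filled), the value after the positional correction with its SE (open squares) and the median of the 40 neighbouring genes (ticks). The intervals of Notch1, Notch2, Jag2 and Hes1 lie above 0, and Notch3, at -0.36, is the only member below 0.

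The authors also deposited a larger count per gene, the total gene reads, which the file headers do not define further. Over all genes the raw count was 88.3% and 88.4% of it in the PM2.5 libraries and 90.2% and 89.5% in the Control libraries. The members varied around the median tested gene, at 87.4%. For Notch2 the raw count held 93.8% and 94.1% of the total gene reads in PM2.5 and 95.7% and 95.4% in Control. For Notch4 it held only 52.7% and 49.4% in PM2.5 and 55.3% and 51.0% in Control.

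Among the members with counts, the share counted differed most between the groups for Hes1, with 72.2% and 64.4% counted in PM2.5 and 39.5% and 52.3% in Control. The Hes1 reads outside the raw count were 20 and 21 in PM2.5 and 23 and 31 in Control, or in reads per 1000000 total gene reads 0.873 and 1.001 in PM2.5 and 1.06 and 1.06 in Control. The counted reads of Hes1 were thus higher in PM2.5 and the reads outside the count were not. For Notch1 the reads outside the raw count were 6.64 and 5.96 reads per 1000000 in PM2.5 and 3.78 and 3.65 in Control, and for Notch2 they were 13.9 and 13.7 in PM2.5 and 7.84 and 8.47 in Control. For these receptors both kinds of read were higher in both PM2.5 libraries. Notch4 also had more reads outside the raw count in PM2.5, 6.42 and 6.05 reads per 1000000, against 5.07 and 4.85 in Control, while its counted reads overlapped. Over all genes, too, more of the reads lay outside the raw count in PM2.5. The raw count there was 88.3% and 88.4% of total gene reads, against 90.2% and 89.5% in Control. Differences in the reads outside the count were not tested.

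**Figure D3:**
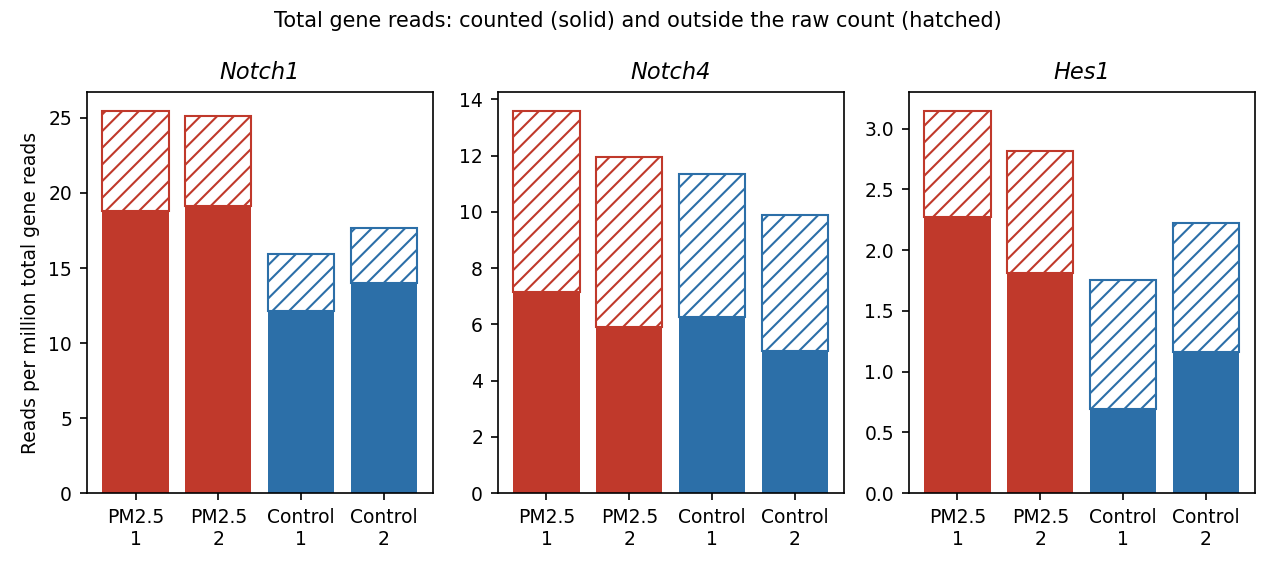
Reads per 1000000 total gene reads for Notch1, Notch4 and Hes1 in each library, split into reads in the raw count (solid) and outside it (hatched). The hatched part of Hes1 is 0.873 and 1.001 in PM2.5 and 1.06 and 1.06 in Control, while its solid part is higher in PM2.5.

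Further genes of the pathway were read from 8 lists with 84 genes, all of them in the table. In edgeR's test, 14 of 66 passed with a higher level in PM2.5 and 18 with a lower one, beside 19.2% and 20.4% of all tested genes. The balance of directions turned with the scaling, to 16 higher and 13 lower with library sizes alone and 15 and 13 with upper-quartile factors. Their median log2 fold change was -0.04, against 0.0063 over all. The numbers were 9 and 10 without PM2.5 replicate 1 and 7 and 11 without PM2.5 replicate 2. With the positional correction, which sets each gene against the median of its 40 neighbours, 11 were higher and 12 lower, beside 16.4% and 16.1% of all tested genes.

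Of 9 tested genes that cut the receptor, 5 were higher and 0 lower in edgeR's test, beside 19.2% and 20.4% of all tested genes. Their median log2 fold change was 0.18. At an unadjusted p below 0.05 the counts were also 5 and 0, with no share of all genes determined. Limma-voom gave 5 and 0, beside 2387 and 2532 of all 12478 genes. Adam10, the main protease of the ligand-dependent cut, averaged 253 ± 4.98 CPM in PM2.5 and 208 ± 1.48 CPM in Control (SD, n = 2 each), with log2 fold change 0.28 and SE 0.05 (adjusted p = 0.00194 by edgeR). The convertase Furin, which cleaves the receptor on its way to the surface, averaged 152 ± 7.07 CPM in PM2.5 and 125 ± 4.10 CPM in Control, and the protease Adam17 159 ± 9.75 CPM in PM2.5 and 135 ± 12.7 CPM in Control. Psen2 and Ncstn, subunits of gamma-secretase named after their values were seen, had log2 fold changes of 0.53 and 0.18. The count higher was 3 with DESeq2, 3 with the positional correction, which also called Aph1a lower, and 1 to 4 with 1 library left out. The call on Furin ended without PM2.5 replicate 2, and that on Adam17 without it, without Control replicate 1, with no filter and with total gene reads.

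Of 4 tested glycosylation genes, Pofut1 was higher and Poglut1 lower, beside 19.2% and 20.4% of all tested genes. The list's median was -0.17. Both enzymes attach sugars to the receptor's EGF-like repeats. Pofut1 averaged 84.8 ± 3.23 CPM in PM2.5 and 67.5 ± 1.12 CPM in Control, with log2 fold change 0.33 and SE 0.06 (adjusted p = 0.00209 by edgeR). Poglut1 averaged 88.2 ± 0.219 CPM in PM2.5 and 104 ± 2.40 CPM in Control, but its neighbours had a median log2 fold change of -0.27, and with that taken out its value was 0.03 (adjusted p = 0.696). Its call also ended without either PM2.5 library. The fringe gene Mfng had 0 counts in every library. The fringe genes Rfng and Lfng were present and did not pass the test. Rfng averaged 37.5 CPM in PM2.5 and 42.6 CPM in Control, and Lfng 9.62 CPM in PM2.5 and 10.8 CPM in Control.

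Of 8 other ligands, 1 had 0 counts in every library and 4 had too few to test. Of the 3 tested, 1 was higher and 1 lower, beside 19.2% and 20.4% of all tested genes, with a median of -0.20. Mfap5, a microfibril protein reported to bind Jagged ligands and Notch1, averaged 3.09 ± 0.254 CPM in PM2.5 and 8.10 ± 0.604 CPM in Control, with log2 fold change -1.40 and SE 0.17 (adjusted p = 0.000139 by edgeR). Of the 66 tested genes in the 8 lists, it was the only one still called against a minimum change of 1.5-fold (adjusted p = 0.00373). Ccn3, a matricellular protein reported to bind Notch1, averaged 0.755 ± 0.0983 CPM in PM2.5 and 0.215 ± 0.0804 CPM in Control, from 30 counts in PM2.5 and 10 in Control. That call ended with DESeq2 (adjusted p = 0.143) and with any library left out. Dll4, a Delta-like ligand, had 4 counts in PM2.5 and 3 in Control in total.

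Among 18 tested genes of ligand endocytosis and receptor turnover, 1 was higher and 6 lower, with a median of 0.01. Over all tested genes 19.2% were higher and 20.4% lower. Neurl1b, a ubiquitin ligase that acts on ligands, averaged 6.68 ± 0.466 CPM in PM2.5 and 11.3 ± 0.963 CPM in Control, with log2 fold change -0.77 and SE 0.14 (adjusted p = 0.00151 by edgeR). Cdk8, a kinase that marks the intracellular domain for turnover, averaged 68.9 ± 1.32 CPM in PM2.5 and 84.1 ± 4.49 CPM in Control. Its partner cyclin Ccnc averaged 37.9 ± 1.24 CPM in PM2.5 and 54.7 ± 5.31 CPM in Control. The neighbours of Ccnc had a median of -0.44, and with that taken out its log2 fold change was -0.09 (adjusted p = 0.432). With the positional correction 3 of the list were lower and 0 higher, beside 16.1% lower and 16.4% higher of all tested genes.

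In the nucleus, 2 of 9 tested activators were higher and 3 lower, with a median of -0.12. Of 13 tested co-repressors 1 was higher and 5 lower, with a median of -0.09. Over all tested genes 19.2% were higher and 20.4% lower. The Mastermind gene Maml3 averaged 29.4 ± 3.27 CPM in PM2.5 and 17.6 ± 3.75 CPM in Control, with log2 fold change 0.72 and SE 0.13 (adjusted p = 0.00186 by edgeR). The acetyltransferase gene Ep300 averaged 180.0 ± 6.31 CPM in PM2.5 and 149 ± 4.75 CPM in Control, which was no longer called when PM2.5 replicate 2 was left out, while Kat2a, another acetyltransferase, averaged 141 ± 5.26 CPM in PM2.5 and 179.9 ± 15.0 CPM in Control. Of the co-repressors, L3mbtl3, which acts with RBPJ, averaged 56.2 ± 2.25 CPM in PM2.5 and 78.9 ± 0.661 CPM in Control, with log2 fold change -0.49 and SE 0.06 (adjusted p = 0.000209 by edgeR). The number of co-repressors lower was 2 with DESeq2, 2 with library size only and 3 with the positional correction, and 1 to 6 with 1 library left out. Of all 12478 tested genes, 1928 were lower with DESeq2, 1889 with library size only and 2008 with the positional correction. Tle3 averaged 116 ± 0.678 CPM in PM2.5 and 98.9 ± 2.25 CPM in Control, and Ncor1 averaged 279 ± 6.38 CPM in PM2.5 and 323 ± 9.88 CPM in Control. The calls on both ended with the positional correction and without either PM2.5 library.

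Of 13 other genes reported as targets in various tissues, 8 were tested, 2 were higher and 2 lower, and the median was -0.03. Over all tested genes 19.2% were higher and 20.4% lower. Some genes of this list were at or near 0. The feedback inhibitor Nrarp had 0 counts in every library, Hes5 had 2 counts in PM2.5 and 1 in Control, and Heyl had 0 in PM2.5 and 2 in Control. The cell cycle inhibitor Cdkn1a averaged 147 ± 6.01 CPM in PM2.5 and 105 ± 6.22 CPM in Control, with log2 fold change 0.48 and SE 0.06 (adjusted p = 0.000246 by edgeR). Cyclin D1, Ccnd1, averaged 605 ± 21.0 CPM in PM2.5 and 487 ± 37.2 CPM in Control. Snai2, a repressor of epithelial genes, averaged 18.5 ± 1.30 CPM in PM2.5 and 32.7 ± 2.32 CPM in Control, a log2 fold change of -0.82 with a local median of -0.33. The other called gene, Myc, named after its value was seen, had a log2 fold change of -0.31. With 1 library left out, 1 to 3 of the list were lower. When PM2.5 replicate 2 was left out it was 1, Snai2, and Myc was not called. With the positional correction 3 were higher and 2 lower, beside 16.4% and 16.1% of all tested genes. Of 6 related repressor genes 2 were tested. Bhlhe41, known from the circadian clock, averaged 44.2 ± 4.28 CPM in PM2.5 and 35.4 ± 1.59 CPM in Control, and its call ended without PM2.5 replicate 1. Bhlhe40 did not pass the test.

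**Figure D4:**
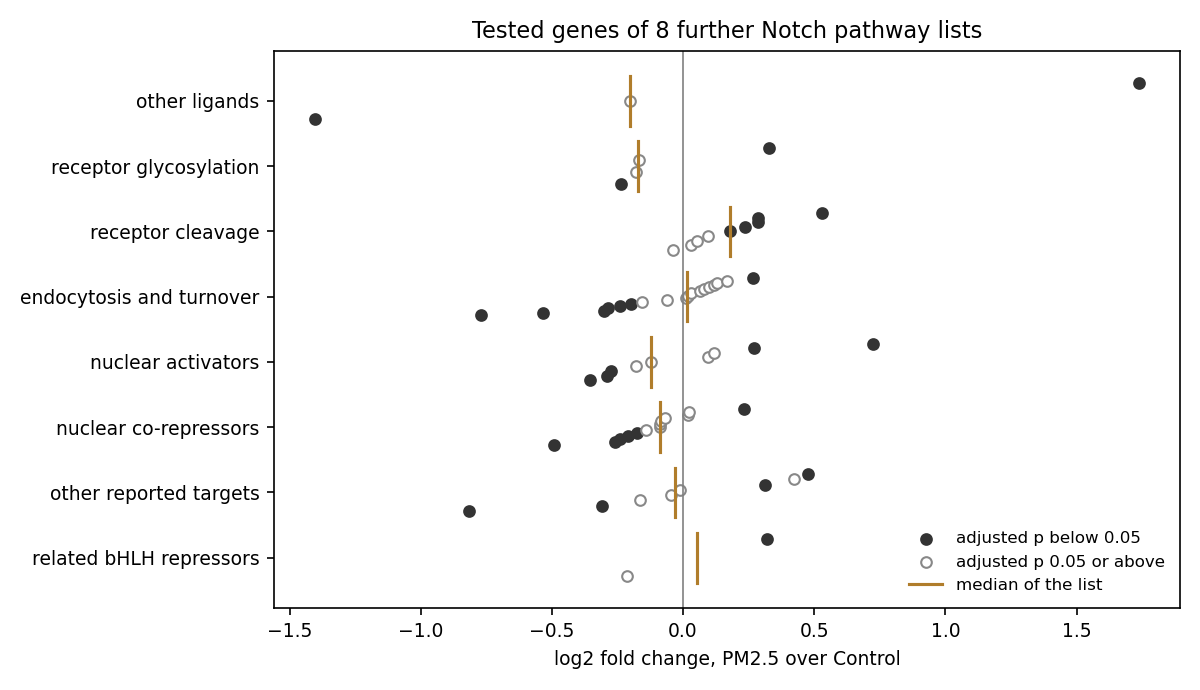
Log2 fold change of PM2.5 over Control for the 66 tested genes of the 8 further lists, with 1 point per gene, filled where the edgeR adjusted p was below 0.05, and a line at each list's median. Receptor cleavage has 5 filled points, all above 0, and the nuclear co-repressors have 1 above and 5 below. Of all tested genes 19.2% were higher and 20.4% lower at that threshold.

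**Figure D5:**
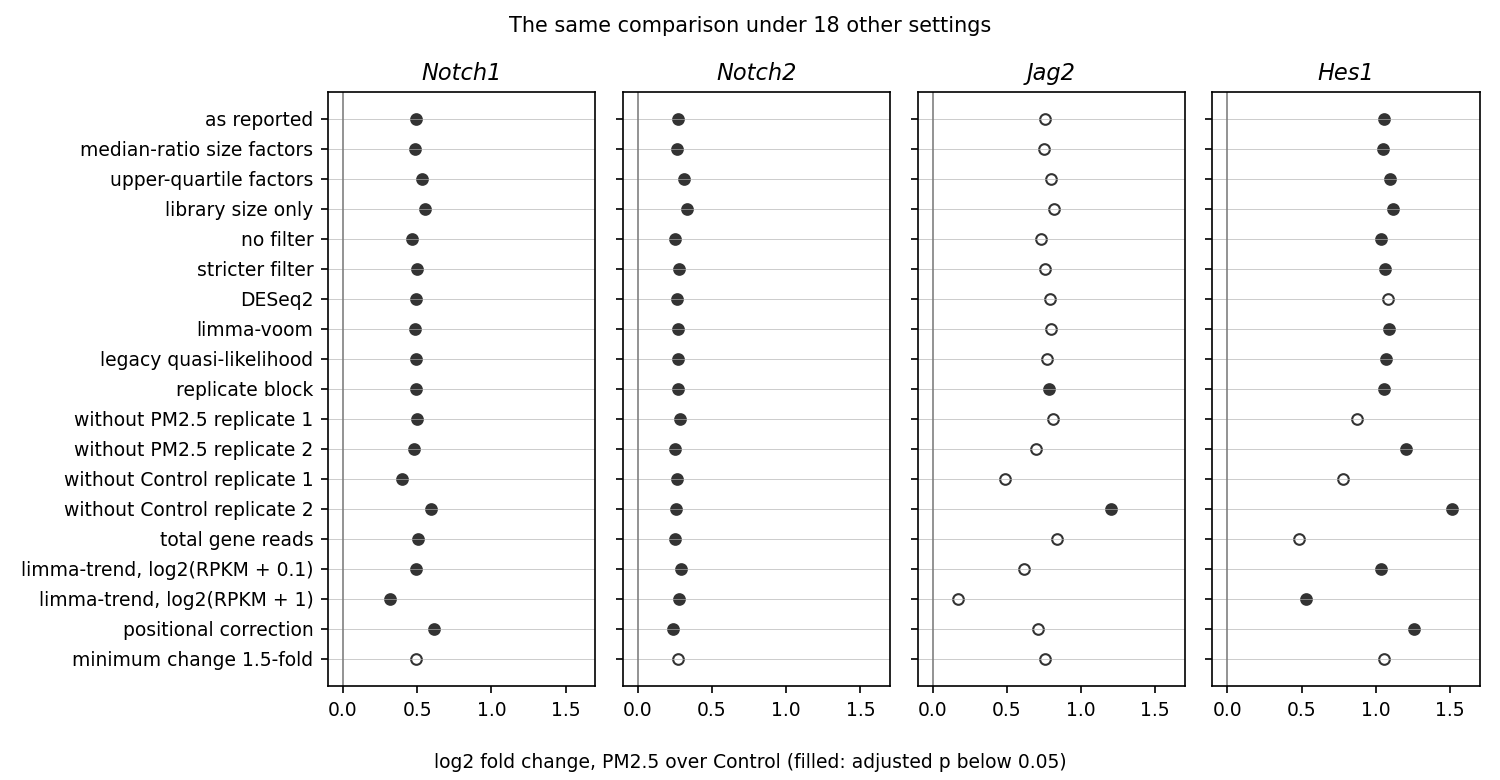
Log2 fold change of PM2.5 over Control for Notch1, Notch2, Jag2 and Hes1 as reported and under 18 other settings, filled where the adjusted p was below 0.05. All values lie above 0; Notch1 and Notch2 are filled in 17 of 18 other settings, Hes1 in 13 and Jag2 in 2.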

How the data were processed

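The authors deposited an unnormalized raw count for each gene and library, and the authors' RPKM values stand beside it. A further count, total gene reads, was also deposited and was never below the raw count. The build is GRCm39 per the submitters' processing notes. The aligner, counting program, annotation release and any use of strand were not given in the sources used here. The raw counts of all 4 libraries were fitted with edgeR 4.0.16 in R 4.3.3 (filterByExpr, TMM, unpaired quasi-likelihood F test, Benjamini-Hochberg over 12478 genes, threshold 0.05). The SE was taken as the absolute log2 fold change divided by the root of the F statistic, and CPM uses the TMM-scaled library sizes. The positional correction entered the median log2 fold change of the 20 nearest tested genes on each side as an offset. Other settings used DESeq2 1.42.0, limma 3.58.1, other scalings and filters, total gene reads, RPKM with pseudocounts of 0.1 and 1, a replicate block, a minimum change of 1.5-fold and each library left out. The fit was also run on counts simulated with the spread estimated from these data, which checks the code and not the calls reported here. The chi-square between replicates, per gene, was 3.63 in PM2.5 and 6.92 in Control, above the 1 of pure counting error. From each further list, up to 3 called genes with the smallest p were named, besides all members. Other list genes were named outside this rule, with their values known. They are Psen2, Ncstn, Aph1a, Mfng, Rfng, Lfng, Dll4, Nrarp, Hes5, Heyl, Myc and Bhlhe40. The members and lists were chosen with earlier results of these data known. Promoters came from RefSeq, GRCm38.p6.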

Additional observations from a re-analysis of the deposited data

How the results depend on the processing

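All 7 tested members kept their direction under the 18 other settings. The setting with a minimum change of 1.5-fold keeps the log2 fold change as reported, so its direction could not differ. Many of the others refit the same raw counts of the same 4 libraries. The calls on Notch1 and Notch2 ended only against a minimum change of 1.5-fold. That setting called 513 genes in all, against 4939 as reported, 0 Notch members higher (1 at an unadjusted p below 0.05), and 0 of the other pathway genes higher and 1 lower. With each library left out in turn, 3110 to 4842 genes were called, 2 to 4 members higher, and 7 to 12 of the other pathway genes higher and 10 to 22 lower. Limma-trend on log2(RPKM + 0.1) and on log2(RPKM + 1) each called 11 of the other pathway genes lower, against 18 as reported. The log2 fold change of Poglut1, negative as reported, was 0.0332 with the positional correction. With the replicate block, 5793 genes were called, and Jag2 became the fourth member called higher (adjusted p = 0.0438 in edgeR). The differences between replicates of the 2 groups correlated at 0.12 across genes, and the labels do not say that the numbers pair libraries. With a library left out, 1 group is a single library assumed to vary like the other. Depth limits Hes1, Jag2 and Notch3, with 15 to 52 counts per library, and Hey1, with 5 to 7. The causes of these changes were not tested.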
